A study of Mus musculus with 23 samples.

Results

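The genes described are those of the cytosolic ribosomal proteins in mouse left ventricle. They are the genes whose symbols, in either of the tables of fold changes that the authors deposited, begin with Rpl or Rps and a number, together with Rplp0, Rplp1, Rplp2 and Rpsa. The ribosomal S6 kinases and names marked as pseudogenes were left out. The rule gave 89 of the 49315 genes of the count table, and used names, not fold changes or p-values. The tables do not list every gene of the count table, and 1 member is listed in only 1 of them, so membership may depend on level. By role they were 43 proteins of the large subunit, 31 of the small subunit, 3 of the stalk and 11 paralogues or retrogenes. The rule also took in Rps19bp1, a nucleolar partner of Rps19 that is no ribosomal protein. All 89 were abundant enough to be tested.

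Left ventricles of FVB mice were flash frozen and their total RNA was sequenced. The exposures were filtered air, e-cigarette aerosol made from the vehicle alone, and e-cigarette aerosol made from vehicle plus nicotine. Exposure lasted 4 hours a day on 5 days a week for 3 months and began at an age of 3 weeks or 3 months, so the age at start and the age at collection cannot be told apart. There were 4 libraries in each of the air and nicotine groups at both ages and in the 3-month vehicle group, and 3 in the 3-week vehicle group. Replicate numbers are the labels' own. Nothing in the labels says that libraries came from separate animals, and p-values therefore reflect only how far these samples vary, which may be technical variation. The labels give no sex, batch or cage.

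Each ribosome is built from a small subunit, which reads the mRNA, and a large subunit, which joins amino acids. Cells make the proteins of both in near equal numbers, and in growing heart muscle the demand for ribosomes is high. The mRNAs of ribosomal proteins are short, abundant and stable. They begin with a run of pyrimidines, the terminal oligopyrimidine motif, through which mTOR signalling controls their translation, so that their mRNA level and their protein output can differ.

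Promoter stretches are shown for 5 of the members with the smallest p-values in the 3-week vehicle comparison, because these genes moved together in the libraries, and for Rpl3l, the striated muscle paralogue of Rpl3. Each runs from 80 bases before the annotated start through the 20 bases that follow it, read 5′ to 3′ on the gene's strand, from RefSeq on GRCm38.p6. Capitals mark CCGGAAG, the core of sites for ETS family factors.
Rps27rt, chr9:114982720-114982819, minus strand: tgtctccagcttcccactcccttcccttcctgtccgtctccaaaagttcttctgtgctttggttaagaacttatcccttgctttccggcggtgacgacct
Rpl26, chr11:68901486-68901585, plus strand: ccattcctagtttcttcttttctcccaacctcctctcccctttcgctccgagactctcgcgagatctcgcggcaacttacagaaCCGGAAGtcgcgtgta
Rps18, chr17:33955646-33955745, minus strand: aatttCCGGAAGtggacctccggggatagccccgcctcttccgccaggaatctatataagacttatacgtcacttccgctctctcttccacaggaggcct
Rps21, chr2:180257299-180257398, plus strand: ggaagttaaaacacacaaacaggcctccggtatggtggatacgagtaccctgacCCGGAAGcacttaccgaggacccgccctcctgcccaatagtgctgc
Rpl36al, chr12:69184048-69184147, minus strand: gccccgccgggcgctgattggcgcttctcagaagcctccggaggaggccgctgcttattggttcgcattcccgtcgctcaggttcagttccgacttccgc
Rpl3l, chr17:24727746-24727845, plus strand: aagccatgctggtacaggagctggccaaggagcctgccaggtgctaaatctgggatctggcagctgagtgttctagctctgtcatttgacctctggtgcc

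The motif CCGGAAG was present in the stretches of Rpl26, Rps18 and Rps21 and not in those of Rps27rt, Rpl36al and Rpl3l. RefSeq windows of 300 bases, 250 before the start and 50 from it, were at hand for 66 of the 89 genes. CCGGAAG on either strand occurred in at least 1 window of 26 of these 66 genes (39.4%), against 9.93% of all 27025 genes in the table. The pyrimidine run CTCTTTC on either strand, whose matches can share at most an end letter with those of the other motif, occurred in 18 of the 66 (27.3%), against 9.28% of all genes. On the transcribed strand alone the shares for CTCTTTC were 19.7% and 4.6%. These are matches of letters and say nothing of binding.

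Libraries held 12297955 to 17821550 counts assigned to genes, of which the 89 genes took 183204 to 392727. No member had a library at 0, and the lowest count of any member was 5, so counting error was small except for 6 members with a median count under 100. The 8 ventricular cardiomyocyte markers summed to 77750 to 97220 CPM (counts scaled to a common library total) in every library, and all 8 were detected. No marker of any list was at 0 in every library. Among the 3-week libraries, vehicle 1 and vehicle 2 stood apart from vehicle 4 in the members' levels, and nicotine 2 and 5 from nicotine 3 and 6. Vehicle 1 had the highest summed blood and erythroid markers of the vehicle libraries at that age, 2363 CPM against 466.8 and 499.4, and vehicle 2 the highest summed atrial markers, 540.4 CPM against 113.1 and 145.1. Air 1 had the highest atrial markers of its group, 388.6 CPM against at most 232.4. The share of counts on noncoding genes was 2.55% and 2.16% in 3-week vehicle 1 and 2, 1.41% in vehicle 4 and 1.11% to 1.49% in air. At that age it was 1.89% and 1.73% in nicotine 2 and 5, and 3.11% and 1.35% in nicotine 3 and 6. The part of these markers and of the noncoding share in the results was not tested.

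Levels were compared between genes as CPM per kilobase of the shortest principal coding transcript, averaged over the 23 libraries. The 3 most abundant were Rplp1, an acidic protein of the stalk that recruits elongation factors, at 805.2, Rps15 of the small subunit at 765.0 and Rps14 of the small subunit at 680.9 CPM per kilobase. At the other end were the retrogene Rps3a3 at 2.72, Rpl39l, a paralogue of Rpl39 best known from the mouse testis, at 2.06, and Rps3a2 at 0.958 CPM per kilobase. The canonical genes therefore spanned a narrower range than the whole set, from Rplp1 down to Rpl29 at 28.4 CPM per kilobase, while 6 of the 11 paralogues and retrogenes lay below Rpl29. Rps20, at 41.98, is placed low because its annotated transcript is 3706 bases long. Many neighbours in this order do not differ beyond their spread over libraries. Several members have processed copies in the genome (23 annotated pseudogenes carry the name of Rps12, and 10 that of Rps2). Copies named after members took 0.0207% to 0.0378% of counts per library, but those of Rps2 alone averaged 154.6 CPM beside 206.9 for Rps2 itself, so its value is uncertain. The same holds for Rps27rt, Rps3a2, Rps3a3, Rpl37rt and Rps4l, whose sequences are close to their parent genes.

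**Figure D1:**
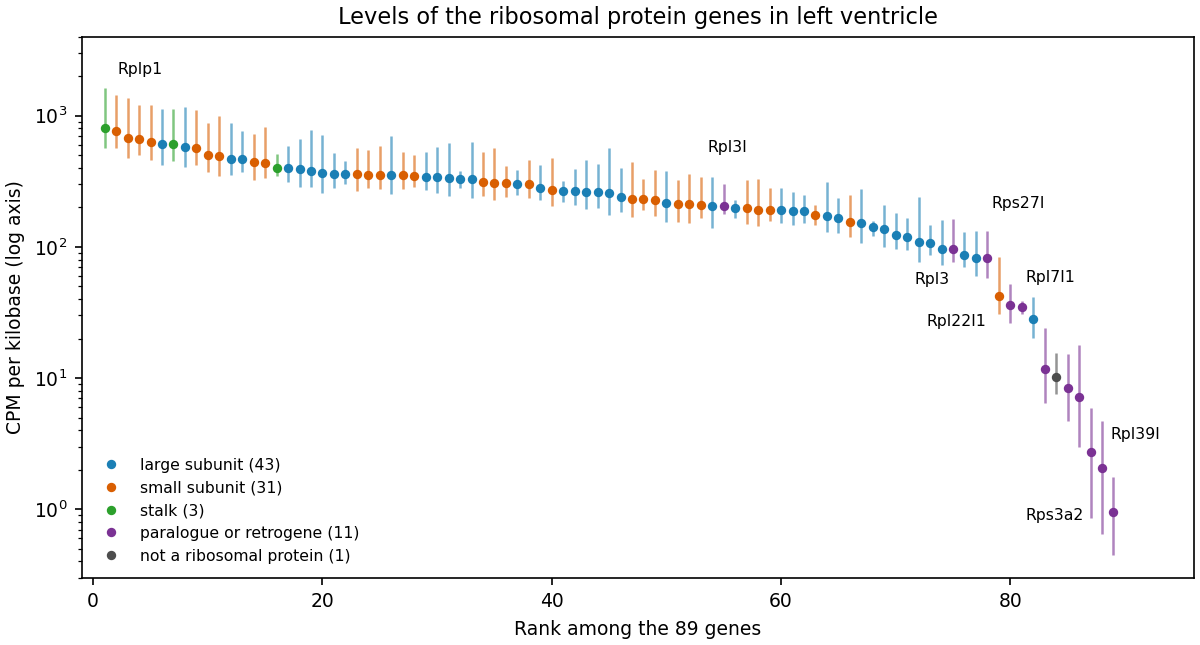
Mean CPM per kilobase over the 23 libraries (points, log axis) and the lowest and highest library (bars) for the 89 genes in order of level, coloured by role. The canonical genes form a plateau that Rplp1 opens at 805.2, and the paralogues and retrogenes fill most of the low end, down to Rps3a2 at 0.958.

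Members also differed in how far they varied over libraries. The SD of log2 CPM over all 23 libraries (with 0.5 CPM added) was largest for Rps3a3 (0.58), Rps27rt (0.55) and Rpl39l (0.49), all of low level. Among canonical members, Rpl24 and Rpl38, both of the large subunit, had SDs of 0.41, and their highest library was 3.14 and 3.21 times their lowest. Rpl7l1, a paralogue of Rpl7 that acts in ribosome assembly, varied least, with an SD of 0.077 and levels of 40.6 to 51.0 CPM. Rpl15 (SD 0.10), Rpl23a (0.12), Rpl4 (0.13), Rplp0 (0.14) and Rps6 (0.14) followed it. Rps6 is the substrate of the S6 kinases, and Rplp0 anchors the stalk.

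The summed counts of the 89 genes were read first in each library. In 3-week air they took 1.38%, 1.84%, 1.84% and 1.70% of all counts in libraries 1, 2, 4 and 5. In 3-week vehicle they took 3.02% and 2.80% in libraries 1 and 2 but 1.69% in library 4, which lay inside the range of air. In 3-week nicotine they took 2.25% and 2.07% in libraries 2 and 5, above every air library, and 1.61% and 1.42% in libraries 3 and 6, which were not. At 3 months the groups were tighter. Air libraries held 1.48%, 1.44%, 1.67% and 1.38%, vehicle libraries 1.82%, 2.02%, 1.91% and 1.87%, and nicotine libraries 1.58%, 1.48%, 1.37% and 1.41%. Every 3-month vehicle library lay above every 3-month air and nicotine library, and those of air and nicotine overlapped. The means were 1.69% ± 0.22 (SD, n = 4) in air, 2.505% ± 0.71 (n = 3) in vehicle and 1.84% ± 0.39 (n = 4) in nicotine at 3 weeks. At 3 months they were 1.49% ± 0.12, 1.90% ± 0.087 and 1.46% ± 0.092 (n = 4 each). In bulk tissue, fewer cells of a type and less RNA per cell cannot be told apart.

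**Figure D2:**
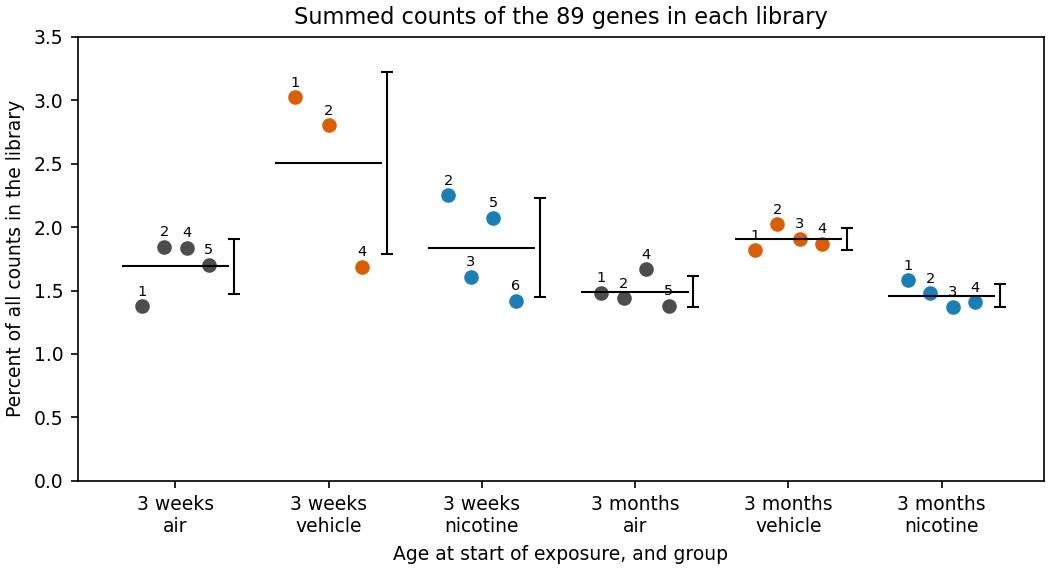
Share of all counts taken by the 89 genes (percent, y axis) in each library, numbered as in the labels, with the group mean (line) and SD (bar). Vehicle libraries 1 and 2 at 3 weeks reach 3.02% and 2.80% while vehicle 4 sits at 1.69%; the 4 vehicle libraries at 3 months, 1.82% to 2.02%, all lie above air and nicotine.

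Counts of the large subunit members exceeded those of the small subunit members by a ratio that moved little. It was lower in 3-week vehicle 1 (1.08) and vehicle 2 (1.10), the libraries with the largest shares, than in the others, where it was 1.15 to 1.19.

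Vehicle against air at the 3-week start gave the largest median difference of the comparisons made. Of the 89 genes, 61 rose (68.5%) at an adjusted p under 0.05 in edgeR's quasi-likelihood test over 15500 genes, of which 9.27% were called higher and 6.92% lower. The median log2 fold change of the members was 0.54, beside 0.015 for all genes tested, and 88 of the 89 were above 0. By class, 28 of 43 large subunit genes, 26 of 31 small subunit genes, 2 of 3 stalk genes and 5 of 11 paralogues and retrogenes rose, with medians of 0.49, 0.57, 0.58 and 0.62. Yet the groups overlapped for all but 4 members (4.49%, against 5.06% of all genes): Rpl22, Rpl5, Rps27rt and Rps3a3. Vehicle 1 and 2 were both above all 4 air libraries in 83 of the 89 genes, whereas vehicle 4 lay within the range of air in 76, above it in 4 and below it in 9. These patterns were not counted over all genes, so they cannot be read as particular to the members. Values of other short genes in these libraries are given below.

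Rps14, a small subunit protein near the decoding site, stood at 292, 364, 361 and 385 CPM in air and at 814, 711 and 365 CPM in vehicle 1, 2 and 4. Vehicle 4 was thus among the air libraries, and the fitted log2 fold change was 0.84 ± 0.19 (SE; adjusted p = 0.0187). Rpl26, a large subunit protein at the mouth of the exit tunnel, was at 161, 188, 185 and 182 CPM in air and at 411, 359 and 173 CPM in vehicle, with a log2 fold change of 0.81 ± 0.19 (adjusted p = 0.0187). Again 2 of 3 vehicle libraries were high and the other was inside the range of air. Rps18 (0.80 ± 0.19, adjusted p = 0.0194), Rps21 (0.72 ± 0.17, adjusted p = 0.0207) and Rpl36al (0.62 ± 0.14, adjusted p = 0.0187) followed the same pattern. Rps27rt, an intronless copy of Rps27, rose by a log2 fold change of 1.55 ± 0.34 (adjusted p = 0.0186) from 1.65 ± 0.43 CPM to 4.88 ± 1.90 CPM (SD). Its 3 vehicle libraries, at 6.69, 5.06 and 2.90 CPM, were all above air, at 1.11 to 2.16 CPM. Rpl5, which carries the 5S rRNA into the large subunit, rose by 0.36 ± 0.11 (adjusted p = 0.0383), with vehicle at 298, 286 and 219 CPM and air at 186, 214, 218 and 218 CPM, so that vehicle 4 was only just above the highest air library.

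Several members that did not pass had small differences, and those given here were picked for that after their values were seen. Rpl15, a large subunit protein, was at 107.7, 126.1 and 112.5 CPM in vehicle and at 108.8, 116.5, 114.7 and 116.5 CPM in air, with vehicle 1 below air and vehicle 2 above it (log2 fold change 0.016 ± 0.088, adjusted p = 0.905). Rpl23a had 0.056 ± 0.10 (adjusted p = 0.719), Rps6 0.10 ± 0.099 (adjusted p = 0.454), Rpl4 0.13 ± 0.098 (adjusted p = 0.345) and Rplp0 0.14 ± 0.11 (adjusted p = 0.325). Within the stalk, the differences were thus unequal: Rplp1 had 0.75 ± 0.20 (adjusted p = 0.0251) and Rplp2 0.58 ± 0.17 (adjusted p = 0.0342). Rpsa, the small subunit protein also known as the laminin receptor, had 0.57 ± 0.17 (adjusted p = 0.0361).

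These calls rested on few libraries. Without vehicle 1 and 2 together the members' median was -0.021 and 0 passed, without either alone 0 passed, and without vehicle 4 there were 80, beside 44.0% of all genes. Air 1 mattered too, with 0 calls without it, as did air 5, with 1. With only the compared groups in the fit, which leaves the spread to 7 libraries, 0 passed, and 0.0% of all genes did. DESeq2 called 67, beside 22.1% of all genes.

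Nicotine against air at the 3-week start gave no member past the threshold by edgeR (0 of 89, beside 0.813% of all genes) or DESeq2 (0). An unadjusted edgeR p under 0.05 was seen in 3 members, beside 12.8% of all genes. The median log2 fold change was 0.12, with 86 members above 0, beside a median of 0.0182 and 53.2% above 0 for all genes. The members' median was 0.025 without nicotine 2 and 0.21 without nicotine 6. Among transcripts shorter than 1000 bases, the median was 0.126 for members and 0.106 for other coding genes. Under 500 bases these medians were 0.134 and 0.156. Summed blood and erythroid markers were 1087 to 1406 CPM in the 4 nicotine libraries and 505 to 931 CPM in air, without overlap, and their part in the result was not tested. Rps3a3, a processed copy of Rps3a1, was at 3.85, 1.81, 2.94 and 2.13 CPM in nicotine 2, 3, 5 and 6 and at 1.17, 0.997, 1.18 and 1.27 CPM in air, so that the groups did not overlap (log2 fold change 1.22 ± 0.44, adjusted p = 0.216). Rps27rt was likewise above air in all 4 nicotine libraries (0.92 ± 0.33, adjusted p = 0.219), as was Rpl39l (0.92 ± 0.46, adjusted p = 0.415). These 3 were 3.37% of members, against 2.57% of all genes. Rpl7l1 was the only member below air in all 4 nicotine libraries (-0.089 ± 0.073, adjusted p = 0.651), beside 2.63% of all genes. In the authors' deposited table of this comparison, Rps3a3 was the member with the smallest adjusted p, 0.0425, with a log2 fold change of 1.22, and no other member was under 0.05. The libraries split as the summed shares did. Nicotine 2 was above all 4 air libraries in 86 members and nicotine 5 in 82, nicotine 3 in 18 and nicotine 6 in 3, and nicotine 6 was below all air libraries in 52. The shares of all genes with these patterns were not counted, so this split cannot be read as particular to the members.

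Nicotine against vehicle at the 3-week start had a median of -0.41, with 87 members below 0, and 0 passed in edgeR (beside 0.0% of all genes). For 62 members the unadjusted p was below 0.05, beside 19.3% of all genes. DESeq2 gave 2 calls, both lower in nicotine, beside 1.64% of all genes. The smallest p-values belonged to Rpl26 (log2 fold change -0.64 ± 0.19, adjusted p = 0.143) and Rps21 (-0.58 ± 0.17, adjusted p = 0.143). Rpl26 was at 251, 182, 218 and 156 CPM in nicotine, all below vehicle 1 and 2, while vehicle 4 lay within the range of nicotine. Without vehicle 4, 73 members were called lower in nicotine, beside 30.3% of all genes called, and without vehicle 1 and 2 the median was 0.15. It was -0.25 without vehicle 1 alone and -0.63 without vehicle 4.

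Vehicle against air at the 3-month start gave smaller and steadier differences. The median log2 fold change was 0.33, beside 0.015 for all genes, and 87 of 89 members were above 0. All 4 vehicle libraries were above all 4 air libraries in 71 members (79.8%), against 8.52% of all genes. Summed markers of T, NK and B cells were also higher in every vehicle library, at 4.05 to 5.39 CPM against 2.49 to 3.92 CPM in air, as was the share of counts on noncoding genes, at 1.49% to 1.66% against 1.23% to 1.46%. Likewise without overlap was the median log2 deviation of 919 other coding genes shorter than 1000 bases, each from its own mean over libraries. It was 0.030 to 0.149 in vehicle and -0.185 to -0.042 in air. The part of these in the result was not tested, apart from fits with a length term. In the fit of all 6 groups 0 members passed in edgeR, as did 0.0% of all genes, and 0 were called by DESeq2. In edgeR 54 members had an unadjusted p under 0.05, beside 14.2% of all genes. In the fit of the 8 compared libraries alone, which takes the spread from these tighter groups, 76 members were called higher, beside 18.4% of all genes in either direction. The call thus depends on which libraries set the spread, while the median was 0.34 in that fit.

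Rpl22l1, the paralogue of Rpl22, was at 21.7, 25.3, 22.7 and 19.3 CPM in 3-month vehicle and at 16.0, 14.4, 19.1 and 14.8 CPM in air (log2 fold change 0.47 ± 0.14, adjusted p = 0.253 in the fit of all groups). The lowest vehicle library was just above the highest of air. Rpl5 was at 250, 258, 237 and 223 CPM in vehicle and at 194, 182, 204 and 179 CPM in air, with no overlap (0.35 ± 0.10, adjusted p = 0.253). Rps6, among the least variable members, was at 164, 182, 169 and 162 CPM in vehicle and at 134, 142, 150 and 129 CPM in air, again without overlap (0.29 ± 0.092, adjusted p = 0.286). Rps14 (0.37 ± 0.18, adjusted p = 0.36) and Rpl26 (0.39 ± 0.18, adjusted p = 0.339) were also higher in every vehicle library. The 18 members whose groups overlapped were Rpl3, Rpl13a, Rpl15, Rpl23a, Rpl30, Rpl35, Rps3, Rpsa, Rps19bp1 and 9 paralogues and retrogenes: Rpl3l, Rpl7l1, Rpl36al, Rpl37rt, Rpl39l, Rps27rt, Rps3a2, Rps3a3 and Rps4l.

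Nicotine against vehicle at the 3-month start had differences in the other direction, and it shares the vehicle libraries with the comparison above. The median was -0.33 with 88 members below 0. All nicotine libraries were below all vehicle libraries in 79 members (88.8%), against 6.66% of all genes. Blood and erythroid markers were 408 to 553 CPM in nicotine against 660 to 893 CPM in vehicle, T, NK and B cell markers 3.28 to 4.03 CPM against 4.05 to 5.39 CPM, and the noncoding share 1.21% to 1.30% against 1.49% to 1.66%. For other coding genes shorter than 1000 bases, the median log2 deviation was -0.207 to -0.029 in nicotine against 0.030 to 0.149 in vehicle. None of these overlapped, and their part in the result was not tested, apart from fits with a length term. Here too 0 passed in edgeR's fit of all groups (beside 0.0% of all genes) and in DESeq2. In that edgeR fit 48 members had an unadjusted p under 0.05, beside 12.2% of all genes. In the fit of the compared groups alone 77 were called lower, beside 15.8% of all genes. Rpl27a, a large subunit protein, had the smallest p (log2 fold change -0.39 ± 0.13, adjusted p = 0.397), at 133, 122, 109 and 115 CPM in nicotine and 152, 173, 149 and 154 CPM in vehicle. Rpl3, which lies by the peptidyl transferase centre, was at 109, 99.9, 96.9 and 96.8 CPM in nicotine and at 136, 132, 136 and 118 CPM in vehicle (-0.37 ± 0.13, adjusted p = 0.397). Neither gene's groups overlapped.

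Nicotine against air at the 3-month start gave small differences on both sides of 0. The median was 0.0058, with 50 members above 0 and 39 below, and 0 passed in edgeR (0.0% of all genes) or DESeq2. An unadjusted edgeR p under 0.05 was seen in 1 member, beside 2.63% of all genes. The authors' deposited table called 0 of the 88 members it lists. Rps4l, annotated as a transcribed pseudogene of the Rps4x family, was the member with the smallest p, at 4.18, 4.50, 4.43 and 4.90 CPM in nicotine and 6.93, 5.98, 7.90 and 5.79 CPM in air (-0.56 ± 0.27, adjusted p = 1.0). Nicotine was below air in every library, and Rps4l was the only member of which this held (1.12%, against 1.71% of all genes).

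**Figure D3:**
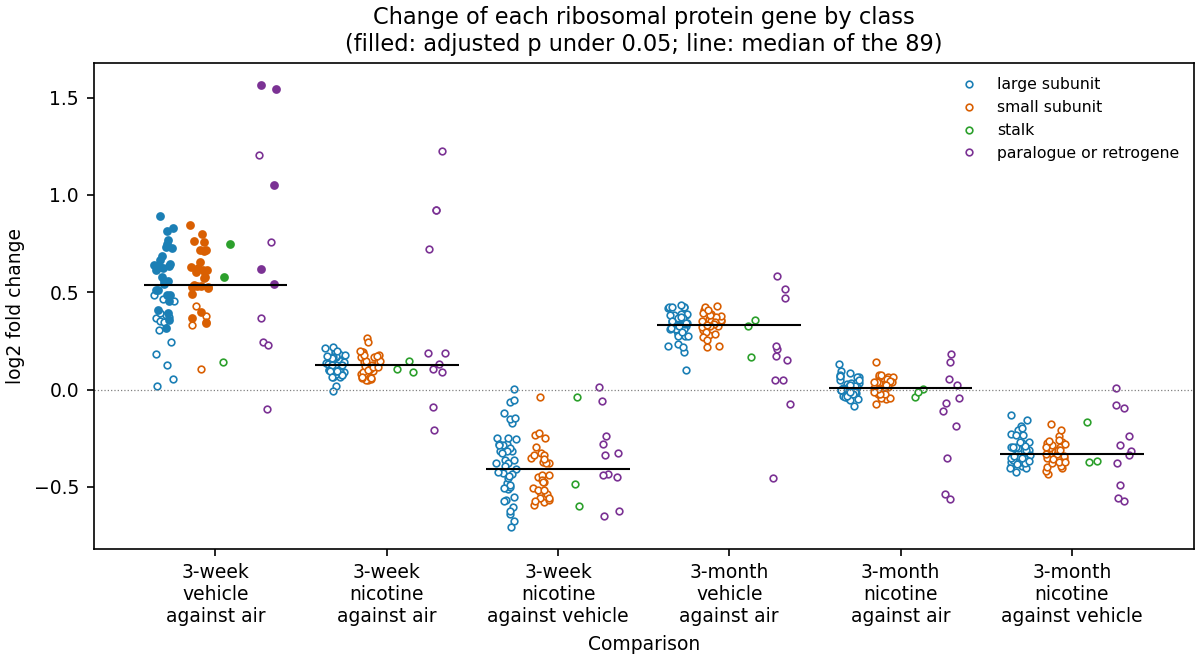
log2 fold change (y axis) of each member except Rps19bp1, which is not drawn, in the 6 comparisons within a starting age, by class. Filled points passed an adjusted p under 0.05 and lines are medians of all 89. Vehicle against air has medians of 0.54 and 0.33 at the earlier and later start, nicotine against air 0.12 and 0.0058, and filled points occur at 3 weeks in vehicle against air.

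The vehicle differences at the 2 starting ages come from separate libraries. Over the 77 canonical members, those with larger log2 fold changes at 3 weeks had larger ones at 3 months (Pearson's r = 0.70, Spearman's rho = 0.60, a description across genes that share length and level). Over all 89, r was 0.071 and rho 0.41. Tested directly, the vehicle effect at 3 weeks minus that at 3 months had a median of 0.20. This median was 0.013 without 3-week vehicle 1 and 0.38 without 3-week vehicle 4. In edgeR (0.0% of all genes) and in DESeq2 0 members were called. An unadjusted edgeR p under 0.05 was seen in 4 of the 89 members, beside 1861 of the 15500 genes tested. Rps27rt (1.32 ± 0.47, adjusted p = 0.282) and Rpl39l (1.66 ± 0.66, adjusted p = 0.34) had the smallest p-values. The nicotine effect differed by a median of 0.12 (0.014 without 3-week nicotine 2 and 0.21 without nicotine 6). Again 0 were called in edgeR (0.135% of all genes) and in DESeq2. In edgeR 3 had an unadjusted p under 0.05, beside 10.2% of all genes. Rps27rt (1.27 ± 0.48, adjusted p = 0.295) and Rps3a3 (1.41 ± 0.62, adjusted p = 0.416) led.

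Transcript length moved with the vehicle differences. The members are short, with a median spliced length of 729 bases against 2831 bases for 13386 other coding genes. In 3-week vehicle against air, the median log2 fold change of other coding genes was 0.50 for lengths under 500 bases, 0.32 from 500 to 750, 0.27 from 750 to 1000, 0.14 from 1000 to 1500, -0.011 from 1500 to 3000 and -0.11 above that. The members' median was above that of other genes in each of these bins. Their medians were 0.644, 0.536, 0.485 and 0.391 in the first 4 bins, which hold 20, 25, 25 and 13 members. The bin from 1500 to 3000 bases holds 5 members, and the last holds only Rps20, placed there by its long annotated transcript. At 3 months the 4 medians of the members were 0.34, 0.35, 0.31 and 0.33, against 0.28, 0.22, 0.19 and 0.11 for other genes. Among the 89 members, the log2 fold change fell with length at 3 weeks (rho = -0.49) and less so at 3 months (rho = -0.18), as descriptions across genes.

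Library by library the same was seen. In 3-week vehicle 1, 2 and 4, the median member deviated from its own mean over libraries by 0.73, 0.63 and -0.11 on the log2 scale, and 919 other coding genes shorter than 1000 bases by 0.42, 0.37 and -0.12. In 3-week nicotine 2, 3, 5 and 6 these values were 0.33, -0.071, 0.19 and -0.28 for members, and 0.24, -0.043, 0.15 and -0.19 for other short genes. The part of length in the members' differences was not tested apart from fits with a length term. With a smooth length trend removed from each library, the 3-week median of vehicle against air was 0.35 on exonic length and 0.22 on spliced length, and 45 and 26 members were called, beside 16.3% and 15.9% of all genes. At 3 months the medians were 0.22 and 0.16.

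**Figure D4:**
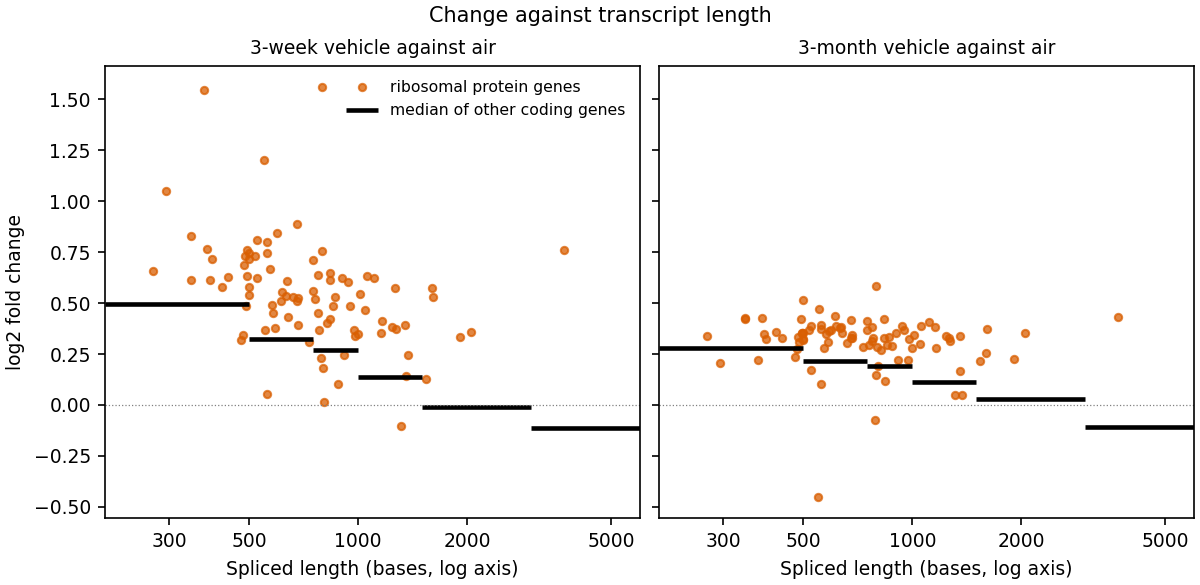
log2 fold change (y axis) of each member against spliced transcript length (x axis, log scale) for vehicle against air at each starting age; black lines are medians of other coding genes in 6 length bins, the last of which is open to the right. Medians of other genes fall from 0.50 to -0.11 at 3 weeks and from 0.28 to -0.11 at 3 months. The members' median lies above the line in every bin, but the last bin holds only Rps20.

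Paralogue pairs were followed because some are used by particular tissues. Rpl3l, which replaces Rpl3 in ribosomes of heart and skeletal muscle, exceeded Rpl3 per kilobase in every library, by 1.66 to 2.78 times. In vehicle 1, 2 and 4 at 3 weeks Rpl3l stood at 418, 294 and 261 CPM, against 253, 261, 280 and 301 CPM in air (log2 fold change 0.24 ± 0.13, adjusted p = 0.158). At 3 months it was at 251 to 296 CPM in vehicle and 243 to 280 CPM in air (0.051 ± 0.12, adjusted p = 0.838), where Rpl3 had 0.34 ± 0.13 (adjusted p = 0.312). The ratio of Rpl3l to Rpl3 was 2.53 ± 0.31 in 3-month air, 2.06 ± 0.19 in vehicle and 2.49 ± 0.069 in nicotine (SD, n = 4). All nicotine ratios were above all vehicle ratios (exact two-sided permutation p = 0.0286, the smallest that 4 against 4 allows), while vehicle and air overlapped (exact p = 0.0857).

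The other pairs were dominated by the canonical gene. Per kilobase, averaged over libraries of 3-month air, Rpl22l1 was at 0.11 of Rpl22, Rpl7l1 at 0.14 of Rpl7, Rpl36al at 0.67 of Rpl36a and Rps4l at 0.028 of Rps4x. In 3-month vehicle the ratio of Rpl7l1 to Rpl7 was 0.12 ± 0.012, below air at 0.14 ± 0.0070 in every library (exact p = 0.0286), and below nicotine, at 0.14 ± 0.0070, in every library (exact p = 0.0286). Rpl7l1 itself was at 43.5 to 51.0 CPM in vehicle and 40.6 to 47.0 CPM in air, where Rpl7 was at 317 to 372 and 267 to 305 CPM. The ratio of Rpl36al to Rpl36a was also lower in every 3-month vehicle library than in air, 0.60 ± 0.029 against 0.67 ± 0.027 (exact p = 0.0286). Rps4l to Rps4x was lower in 3-month nicotine than in air, 0.019 ± 0.0016 against 0.028 ± 0.0029, and Rpl39l to Rpl39 was higher in 3-week nicotine than in air, 0.0275 ± 0.0113 against 0.0146 ± 0.00344 (exact p = 0.0286 each). In 42 such tests of ratios none passed adjustment, the smallest adjusted p being 0.2. The ratio of Rps27l, a p53-regulated paralogue, to Rps27 lay between 0.15 and 0.22 in every library. Rpl10l was not among the members. Rps19bp1 was at 6.38 to 13.0 CPM over the libraries and passed in no comparison in edgeR, with a log2 fold change of 0.42 ± 0.16 (adjusted p = 0.0671) in 3-week vehicle against air.

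**Figure D5:**
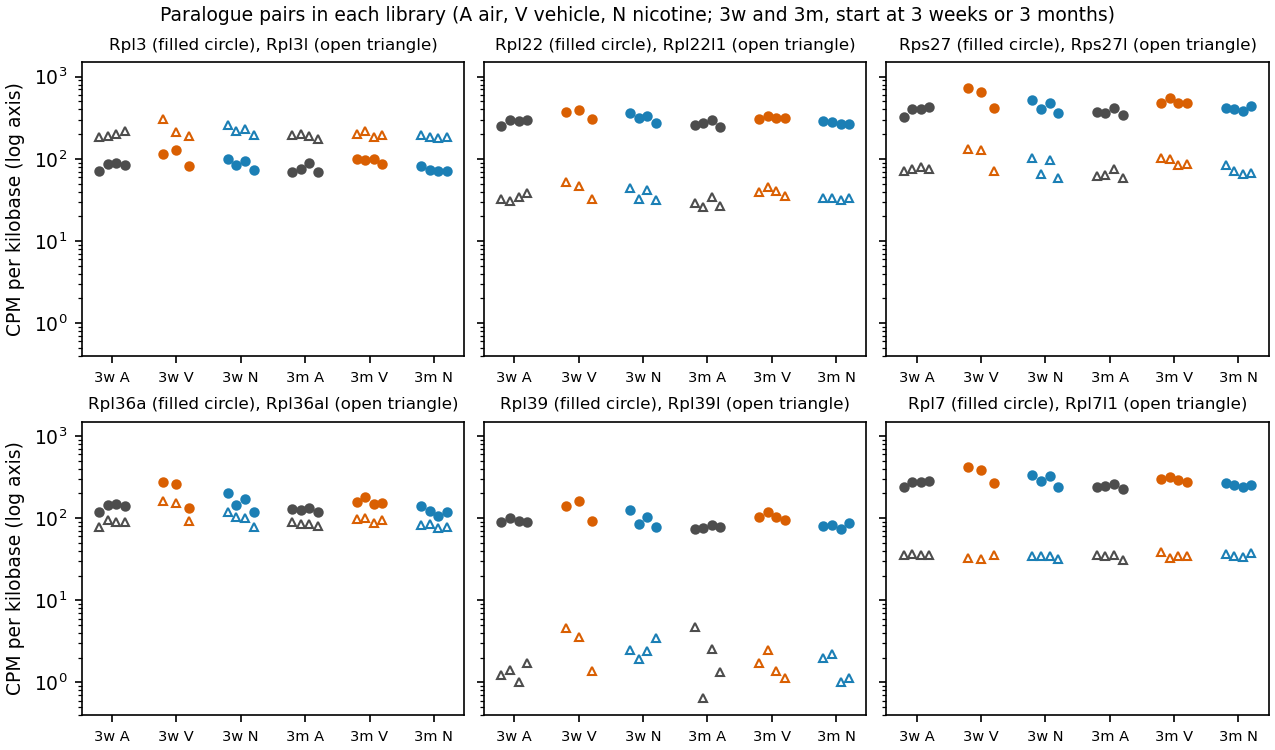
CPM per kilobase (log axis) of 6 canonical genes (filled circles) and their paralogues (open triangles) in each library of the 6 groups. Rpl3l lies above Rpl3 in every library, and the other 5 paralogues lie below their partners in every library.

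Genes that work with ribosomal proteins were read beside all genes tested in 3-week vehicle against air, of which 9.27% rose and 6.92% fell. The calls in each of the 4 lists that follow are few, and their counts are descriptions to be read against those shares. Those in 3-week vehicle against air rest on the same libraries as the members' calls, which few libraries carried. With only the compared groups in that fit 0.0% of all genes passed, so no list gene did. Leaving out single libraries was not examined for the list genes. Of 25 elongation and initiation factors and other genes with terminal oligopyrimidine mRNAs, 2 rose and 1 fell in 3-week vehicle against air, with a median log2 fold change of 0.16. Eef1d, of the eEF1 exchange complex, rose by 0.60 ± 0.16 (adjusted p = 0.0265), and Fau, which encodes the small subunit protein eS30 but lies outside the naming rule, by 0.60 ± 0.18 (adjusted p = 0.0338). Hnrnpa1, an RNA-binding protein, fell by 0.32 on the log2 scale ± 0.099 (adjusted p = 0.0384). Of 14 genes of RNA polymerase I and rRNA transcription, Taf1d rose (0.58 ± 0.18, adjusted p = 0.0393) and Rrn3, which recruits the polymerase to rDNA, fell (-0.44 ± 0.15, adjusted p = 0.0446), with a list median of 0.15.

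Of 30 genes of rRNA processing and ribosome assembly, 1 rose and 3 fell in that comparison, with a median of -0.024. Dkc1, the pseudouridine synthase of the nucleolus, rose by 0.41 ± 0.12 (adjusted p = 0.0328). Those that fell were Gnl3, a nucleolar GTPase (-0.50 ± 0.11, adjusted p = 0.0184), Nmd3, the export adaptor of the large subunit (-0.55 ± 0.15, adjusted p = 0.0265), and Bysl, a small subunit assembly factor (-0.51 ± 0.16, adjusted p = 0.0419). Gnl3 also fell in 3-week nicotine against air, from 26.4 ± 3.31 to 18.8 ± 1.14 CPM (SD, n = 4; log2 fold change -0.49 ± 0.10, adjusted p = 0.0319), and was the only gene of these 4 lists to pass there. Of 21 regulators of growth and of terminal oligopyrimidine mRNA translation, 1 rose and 3 fell in 3-week vehicle, with a median of -0.18. Those that fell were the kinase Akt1 (-0.42 ± 0.12, adjusted p = 0.0279), Rheb, the GTPase that activates mTOR complex 1 (-0.40 ± 0.11, adjusted p = 0.031), and Rptor, a scaffold subunit of that complex (-0.47 ± 0.16, adjusted p = 0.0485). Maf1, a repressor of RNA polymerase III, rose by 0.38 ± 0.11 (adjusted p = 0.0342). Akt1 was at 149.85 ± 30.8 CPM in vehicle and 200.71 ± 22.3 CPM in air (SD). Rptor was at 40.5 ± 12.5 CPM and 56.2 ± 8.60 CPM. At 3 months 0 genes of these 4 lists passed in vehicle against air in edgeR, with medians of 0.17, -0.050, 0.0066 and -0.099 in the same order.

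Other sets of nuclear genes are given for scale. In 3-week vehicle against air, beside the 9.27% of all genes that rose and the 6.92% that fell, 36 of 78 nuclear-encoded respiratory chain subunits tested rose and 2 fell (median 0.41), and 11 of 78 mitochondrial ribosomal protein genes rose and 4 fell (median 0.19). At 3 months their medians were 0.25 and 0.11, with 0 called in either set.

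Between starting ages, the air controls had a median of -0.13 for 3 months against 3 weeks, with 85 members below 0. In edgeR (0.00645% of all genes) and DESeq2 0 members were called. In edgeR 0 members had an unadjusted p under 0.05, beside 9.08% of all genes. Rps4x, the X-linked small subunit gene, had the smallest p (-0.20 ± 0.11, adjusted p = 0.611), followed by Rps3a3 (0.80 ± 0.44, adjusted p = 0.627), whose value was 0.077 without 3-month air 1. Among nicotine libraries the median was -0.25 (-0.15 without 3-week nicotine 2), with 0 called in edgeR (9.52% of all genes) and in DESeq2. In edgeR 10 members had an unadjusted p under 0.05, beside 28.0% of all genes. Rps4x (-0.27 ± 0.11, adjusted p = 0.104) and Rpl3l (-0.29 ± 0.12, adjusted p = 0.112) led. Among vehicle libraries 4 members fell (4.49%, against 7.38% of all genes called lower): Rpl36al (-0.51 ± 0.14, adjusted p = 0.0278), Rps21 (-0.58 ± 0.17, adjusted p = 0.0335), Rpl26 (-0.57 ± 0.19, adjusted p = 0.0479) and Rps4x (-0.35 ± 0.12, adjusted p = 0.0492). At 3 weeks these genes were highest in vehicle 1 and 2. Without those libraries the members' median for this comparison, -0.34 with all libraries, was 0.24 and 0 were called, and without vehicle 4 of that age 68 were, beside 39.8% of all genes. Without 3-week vehicle 1 or 2, or 3-month vehicle 1, 2 or 3, left out singly, 0 were called, and 2 were without 3-month vehicle 4. The median was -0.15 without 3-week vehicle 1 and -0.52 without 3-week vehicle 4.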

How the data were processed

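Counts per gene, whole numbers without normalization, were deposited by the authors for 49315 genes in 23 libraries. Per the submitters' processing notes, the tools included Trimmomatic 0.36, STAR 2.5.2b, Subread 1.5.2 with featureCounts, and DESeq2. Genome build, annotation and strand: not given in the sources used here. Reads of overlapping genes and close copies may thus be split or lost. The authors also deposited, for nicotine against air at each age, log2 fold changes with p-values and adjusted p-values. The signal columns of the same deposited tables, counts divided by a size factor, gave no result here. Gene types and lengths were looked up in GENCODE vM21.

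Counts were fitted in R 4.3.3 with edgeR 4.0.16: filterByExpr at a minimum count of 10 (15500 genes), TMM scaling, and 1 robust quasi-likelihood fit of the 6 groups with 17 residual degrees of freedom. Benjamini-Hochberg adjustment covered every gene tested, and the threshold was 0.05. CPM are TMM-scaled and are given ± SD, log2 fold changes ± SE. DESeq2 1.42.0 and a per-library lowess length offset (span 0.3) were alternatives. Scripts were tested on simulated data. Library totals of 12297955 to 17821550 counts limit precision only for the least abundant members. Fits on spliced length, on 1 starting age and without pairs of libraries were chosen after seeing the data. Members, gene lists and alternatives were chosen with earlier results of these data known. Named members were those with the smallest p per comparison (up to 6 in each direction among those called, otherwise 2), the paralogue pairs, stalk genes, Rpsa, Rps6, Rps19bp1, and the most and least abundant and most variable; Rpl15, Rpl23a, Rpl4, Rpl24, Rpl38, Rpl29 and Rps20, the genes that did not overlap at 3 weeks, Rpl5, Rps6, Rps14 and Rpl26 outside their own comparison, and the choice of list genes beyond 3 were added after their values were seen.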

Additional observations from a re-analysis of the deposited data

Results flagged for a closer look

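In groups of 4 libraries, 8 of 190 values tested had a library far from the other 3, its gap to the nearest taking most of the group's range (Dixon's 95% critical value). Chance alone flags about 1 in 20 groups. In 3-week air, library 1 was low for Rplp1 (316.45 CPM, the others 380.1 to 392.98), Rpl5 (185.55, the others 214.2 to 218.46) and Rpl27a (119.67, the others 134.99 to 138.13). In 3-week nicotine, library 6 was low for Rpl7l1 (41.527 CPM, the others 44.825 to 45.073) and high for the ratio of Rpl39l to Rpl39 per kilobase (0.044288, the others 0.019686 to 0.023069). In 3-month air, library 4 was high for Rps4x (312.36 CPM, the others 279.98 to 283.09). In 3-month vehicle, library 2 was high for Rps27 (190.78 CPM, the others 165.16 to 167.35). In 3-month nicotine, library 1 was high for Rps3a3 (2.4786 CPM, the others 1.427 to 1.5913). Library 1 of 3-week air was the lowest of its group in 83 of the 89 genes, and library 2 of 3-month vehicle the highest of its group in 80. Neither was counted over all genes.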

How the results depend on the processing

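Members called in 3-week vehicle against air were 61; the count was 32 with no filter on low counts, 26 with a length offset on spliced length, and 0 with the replicate block, with libraries of 1 starting age, with the compared groups only, without air 1 and 5 together, or without vehicle 1 and 2 together. It was 57 with RLE scaling, 45 with the exonic length offset and 67 in DESeq2. Of all genes, 16.3% were called with the exonic length offset, 15.9% with the spliced one and 22.1% in DESeq2. Where no share of all genes is printed in this section, the count of members cannot be read as particular to them. Leaving out single libraries gave 0 to 80. Without vehicle 1 and 2 the members' median was -0.021 in that comparison, 0.15 in 3-week nicotine against vehicle, 0.24 in 3-month against 3-week vehicle and -0.34 for the vehicle effect at 3 weeks minus 3 months. The same setting turned the direction of Rpl26 (-0.034) and Rps21 (-0.013) in 3-week vehicle against air, of Rpl26 (0.19) and Rps21 (0.14) in 3-week nicotine against vehicle, and of Rpl36al (0.043), Rps21 (0.15), Rpl26 (0.27) and Rps4x (0.046) in 3-month against 3-week vehicle. In 3-week nicotine against vehicle, DESeq2 called 2, and leaving out single libraries gave 0 to 73.

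At 3 months, the fit of the compared groups only gave 76 calls in vehicle against air, beside 18.4% of all genes. In nicotine against vehicle it gave 77, beside 15.8% of all genes. Libraries of 1 starting age gave 77 and 78 calls in these comparisons. The medians there were 0.22 and 0.16 for vehicle against air with the exonic and the spliced length offset, and -0.21 and -0.17 for nicotine against vehicle. The 4 calls of 3-month against 3-week vehicle became 2 with RLE scaling, 7 with the length offset, 8 in DESeq2, 1 with the replicate block, and 0 with no filter, with the compared groups only or without 3-week vehicle 1 and 2; single libraries left out gave 0 to 68. They gave 0 to 1 in 3-month against 3-week nicotine and 0 to 11 for the vehicle effect between ages. As a share of nuclear coding counts the 3-month members took 1.66% in air, 2.12% in vehicle and 1.64% in nicotine. The cause of these changes was not tested.

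What libraries with the same replicate number have in common is not given in the labels. Correlations of their deviations ran from -0.37 to 0.283, and those of libraries with different numbers from -0.593 to 0.561. These correlations cannot show whether same-numbered libraries shared a batch or cage. With the block, the median was 0.52 in 3-week vehicle against air, 0.32 in 3-month vehicle against air and -0.33 in 3-month nicotine against vehicle. Of 192 alternative medians, 184 stayed within the spread of libraries and 8 moved. The number of members called moved in 33 alternatives and stayed in 159. The summed level moved in 3 and stayed in 9. Among single named members 8 of the values reversed, 88 lost their call, 14 gained one and 372 stayed the same.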
